A study of Rattus norvegicus with 27 samples.

Results

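The genes described here are Pdk4, which encodes pyruvate dehydrogenase kinase 4, with Pdk1 and Pdk2, which encode 2 related kinases, and Pdha1, Pdhb and Dlat, which encode subunits of the pyruvate dehydrogenase complex. They were taken as the probes annotated with one of these symbols, which gave 1 probe for each of the 6 genes out of 12978 named genes on the array. All 6 probes were among the 11657 kept after a filter on dim probes. Pdk4 was selected because its levels in the exposure groups were already known from these arrays, so its group differences are given below as a description with no test. Levels were measured by Illumina bead arrays in heart RNA of male rats of the Fisher 344 strain that were 4 weeks old when exposure began and were exposed for 3 months. There were 7 arrays from rats breathing filtered air, 6 from rats exposed to coarse particles, 6 for fine particles and 8 for ultrafine particles. The labels mention no pooling of animals. The p-values measure the spread between these arrays, which may be partly technical. All levels are on the log2 scale of the table, with 5.12 the lowest and 14.17 the highest value in it, and a level is compared only between arrays for the same probe.

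The pyruvate dehydrogenase complex sits in the mitochondrial matrix and turns pyruvate, the end product of glycolysis, into acetyl-CoA for the citric acid cycle. The kinases phosphorylate its first component and shut it off, and phosphatases remove the phosphate and switch it on again. In heart muscle the balance of kinases and phosphatases sets how much glucose carbon is oxidised beside fatty acids, and Pdk4 is the kinase whose transcript is known to rise with fasting, with fatty acids acting through PPAR alpha, with FOXO factors and with glucocorticoids.

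The arrays differed in the cells they held. Markers of thymocytes and lymphocytes (16 of 26 measured) had a mean level of 5.91 to 9.67 across the 27 arrays, with a median of 6.11. On 10 arrays this mean was raised or the array correlated poorly with the others: filtered air 1 and 2, coarse 1, 2 and 5, fine 2 and 4, and ultrafine 2, 7 and 8. Results are therefore given in all 27 arrays or in the other 17, and the main ones in both. The 17, of which 5 were filtered air, 3 coarse, 4 fine and 5 ultrafine, are a set chosen after seeing the data. The cardiomyocyte list (10 of 12 measured) lay between 12.16 and 12.66 on all arrays except coarse 1, ultrafine 2, ultrafine 7 and ultrafine 8, where it was 11.65, 11.48, 11.40 and 11.47. Of its 10 genes, 9 had a median of 11.69 or more over the arrays, and Actc1 was at 6.97. In bulk tissue, fewer cells of a type and less RNA per cell cannot be told apart.

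The promoters of 5 of the genes are shown because Pdk4 separated the groups, because Pdha1, Pdhb and Dlat followed one another from array to array, and because Pdk2 ran opposite to them in the 17 arrays. Each is the 250 bases before the transcription start of the RefSeq gene, 5′ to 3′ on the strand of the gene, in the GRCr8 assembly, with matches to the searched motifs in capitals.

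Pdk4 (chr4:34568330-34568579, minus strand): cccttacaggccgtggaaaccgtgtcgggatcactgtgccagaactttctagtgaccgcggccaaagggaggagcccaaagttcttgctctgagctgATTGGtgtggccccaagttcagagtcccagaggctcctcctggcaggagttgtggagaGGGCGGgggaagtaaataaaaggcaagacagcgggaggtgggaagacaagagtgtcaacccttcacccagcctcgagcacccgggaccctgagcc

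Pdk2 (chr10:80483913-80484162, minus strand): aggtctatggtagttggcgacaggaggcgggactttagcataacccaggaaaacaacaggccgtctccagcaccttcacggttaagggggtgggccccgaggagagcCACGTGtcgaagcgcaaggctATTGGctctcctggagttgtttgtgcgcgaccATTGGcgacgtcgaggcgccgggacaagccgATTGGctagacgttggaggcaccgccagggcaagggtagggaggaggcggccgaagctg

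Pdha1 (chrX:38508908-38509157, plus strand): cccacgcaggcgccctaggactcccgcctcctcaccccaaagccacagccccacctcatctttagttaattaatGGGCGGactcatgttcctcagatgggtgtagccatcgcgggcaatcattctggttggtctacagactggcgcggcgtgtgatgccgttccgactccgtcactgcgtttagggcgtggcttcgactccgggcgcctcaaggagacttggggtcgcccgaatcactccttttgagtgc

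Pdhb (chr15:19182539-19182788, plus strand): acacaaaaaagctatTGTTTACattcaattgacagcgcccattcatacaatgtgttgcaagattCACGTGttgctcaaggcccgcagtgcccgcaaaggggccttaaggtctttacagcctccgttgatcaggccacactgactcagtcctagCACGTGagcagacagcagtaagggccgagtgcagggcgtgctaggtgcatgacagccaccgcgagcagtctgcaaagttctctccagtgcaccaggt

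Dlat (chr8:59900819-59901068, minus strand): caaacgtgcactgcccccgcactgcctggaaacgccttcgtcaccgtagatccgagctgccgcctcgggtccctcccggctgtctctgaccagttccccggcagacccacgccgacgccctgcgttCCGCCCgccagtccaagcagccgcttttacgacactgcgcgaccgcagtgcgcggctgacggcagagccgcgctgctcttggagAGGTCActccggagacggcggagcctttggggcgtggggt

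The motifs were searched on both strands of all 33469 RefSeq promoters cut to the same length, and none of them contains another. The Pdk4 promoter held 1 CCAAT box (CCAAT, found in 34.0% of all promoters) and 1 GC box (GGGCGG, 30.5%). The Pdk2 promoter held 3 CCAAT boxes and 1 E-box (CACGTG, 5.6%), while Pdha1 held 1 GC box and Pdk1, not shown, held 2. The Pdhb promoter held 2 E-boxes and 1 FOXO site (TGTTTAC, 3.2%), and Dlat held 1 GC box and 1 nuclear receptor half-site (AGGTCA, 14.1%). No promoter of the 6 genes held a TATA box (TATAAA, 12.9%), a glucocorticoid receptor half-site (TGTTCT, 17.5%) or an ETS core (CGGAAG, 13.9%) in this window. The subunit genes that followed each other most closely thus had no searched motif in common across all 3 promoters, and these matches are letters only.

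Pdk4 was high in most hearts exposed to coarse or ultrafine particles and low with filtered air and fine particles. In filtered air its level ran from 7.25 to 8.48 with a median of 7.52. With coarse particles it ran from 7.94 to 9.82 with a median of 9.05, and 5 of 6 arrays lay above every filtered air array. With fine particles it ran from 7.59 to 8.20 with a median of 7.90, wholly inside the filtered air range. With ultrafine particles it ran from 7.25 to 10.15 with a median of 9.20, and 7 of 8 arrays lay above every filtered air array. The exceptions were coarse 1 at 7.94 and ultrafine 7 at 7.25, which had the highest lymphocyte marker means of all arrays, 9.67 and 9.63, and cardiomyocyte marker means of 11.65 and 11.40. Ultrafine 2, with a lymphocyte mean of 9.28 and a cardiomyocyte mean of 11.48, had Pdk4 at 9.08, and ultrafine 8, with a cardiomyocyte mean of 11.47, had it at 8.63, both above every filtered air array. The part of these cells in the Pdk4 levels was not tested.

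**Figure D1:**
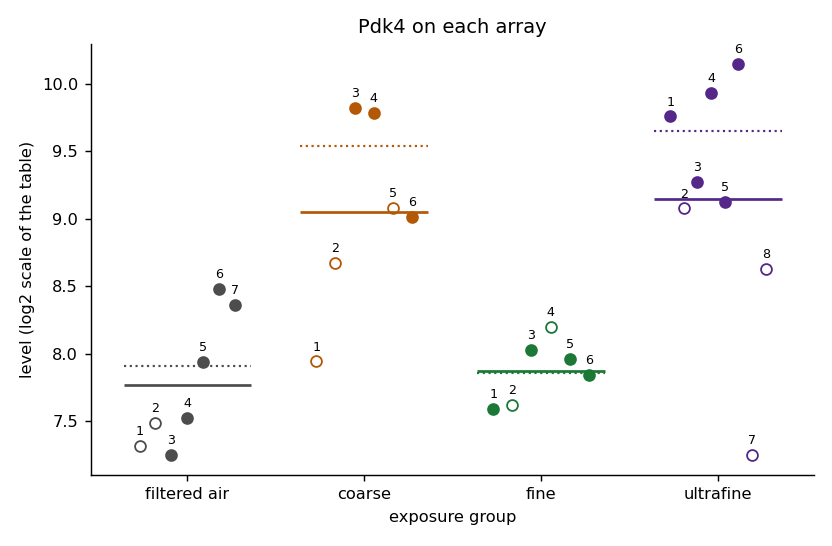
Level of Pdk4 (y axis, log2 scale of the table) on each array by exposure group (x axis), numbered by replicate. Open points are the 10 arrays that stand apart, solid lines are group means over all arrays, and dotted lines are means over the other 17 arrays; the filled coarse and ultrafine points lie at 9.01 or higher, and the filtered air and fine points at 8.48 or lower.

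In the 17 arrays the separation was complete. Pdk4 was 7.25, 7.52, 7.94, 8.36 and 8.48 with filtered air, and 7.59, 7.84, 7.96 and 8.03 with fine particles. It was 9.01, 9.78 and 9.82 with coarse particles, and 9.12, 9.27, 9.76, 9.93 and 10.15 with ultrafine particles. The coarse and the ultrafine groups overlapped neither filtered air nor fine. The groups also failed to overlap for 5.96% of all probes between coarse and filtered air, 1.61% between ultrafine and filtered air, 14.7% between coarse and fine, and 3.94% between fine and ultrafine. Nothing is read from these shares, since these values are the ones that chose the gene.

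The mean of Pdk4 was 7.77 ± 0.50 (SD, n = 7) with filtered air, 9.05 ± 0.71 (SD, n = 6) with coarse, 7.87 ± 0.24 (SD, n = 6) with fine and 9.15 ± 0.92 (SD, n = 8) with ultrafine particles. Against filtered air, the log2 difference was 1.29 (SE 0.35) for coarse particles, or 2.44-fold. It was 1.38 (SE 0.33) for ultrafine particles, or 2.61-fold, and 0.11 (SE 0.35) for fine particles, or 1.08-fold. These 3 comparisons share their filtered air arrays. In the 17 arrays the differences were 1.63 (SE 0.28), 1.74 (SE 0.24) and -0.06 (SE 0.26) for coarse, ultrafine and fine particles, which is 3.09-fold and 3.33-fold higher and 1.04-fold lower. Leaving out 1 array at a time moved the coarse difference between 1.13 and 1.51 and the ultrafine difference between 1.24 and 1.65 over the 27 arrays, and between 1.46 and 1.89 and between 1.57 and 1.88 within the 17.

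The order of the mean levels in 27 arrays was ultrafine, coarse, fine and filtered air, and in the 17 the last pair changed places. In 27 arrays coarse minus ultrafine was -0.10 (SE 0.34) and fine minus filtered air was 0.11 (SE 0.35), both smaller than the standard deviation within any group, whereas coarse exceeded fine by 1.18 (SE 0.37). By size of the log2 difference among all 11657 probes, Pdk4 in 27 arrays had rank 1 for ultrafine against filtered air, rank 2 for coarse against filtered air, rank 1 for coarse against fine and rank 4 for fine against ultrafine. For fine against filtered air its rank was 3706, and for coarse against ultrafine it was 3243. In the same order these ranks were 1, 2, 3, 2, 6526 and 3738 in the 17 arrays. These ranks describe the gene that was chosen and support nothing by themselves.

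Pdk4 is also transcribed in fat and in skeletal muscle, and markers of both tissues were raised on some arrays. The adipocyte list (8 of 11 measured) had a mean of 7.00 to 8.55 in filtered air, 7.15 to 8.28 in coarse, 7.36 to 8.39 in fine and 7.21 to 8.10 in ultrafine hearts. Ucp1, the uncoupling protein that defines brown fat, was at 5.54, 5.57 and 5.58 on coarse 3, coarse 4 and ultrafine 1, near the bottom of the table, where Pdk4 was 9.82, 9.78 and 9.76. On the 2 arrays with the highest Pdk4, ultrafine 6 at 10.15 and ultrafine 4 at 9.93, Ucp1 was at 9.12 and 9.32. On filtered air 5, with the highest Ucp1 at 11.30, Pdk4 was 7.94. Adipoq, of the same list, was also low on coarse 3, coarse 4 and ultrafine 1, at 5.89, 5.82 and 5.88. Lipe and Pnpla2, on that list too, were instead higher with coarse and ultrafine particles in the 17 arrays. Lipe was 7.20 to 8.09 with filtered air, 8.11 to 8.20 with coarse and 8.11 to 8.54 with ultrafine particles. Pnpla2 was 8.31 to 8.96, 9.14 to 9.33 and 9.01 to 9.48 in the same order. The skeletal muscle list (4 of 9 measured) lay between 5.94 and 6.24 on all arrays except coarse 6 at 8.88 and ultrafine 5 at 6.99, which had Pdk4 levels of 9.01 and 9.12, the lowest of their groups among the 17 arrays. The part of fat and skeletal muscle in the Pdk4 levels was not tested.

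Pdk1, a kinase known as a target of hypoxia-inducible factor, kept a narrow range in filtered air, from 10.33 to 10.63 with a median of 10.45, and in fine hearts, from 10.43 to 10.70 with a median of 10.56. With coarse particles it ran from 9.81 to 10.85 with a median of 10.59, and with ultrafine particles from 8.57 to 10.67 with a median of 10.38. The 4 lowest values of all arrays, 8.57 on ultrafine 8, 9.63 on ultrafine 7, 9.81 on coarse 1 and 10.06 on ultrafine 2, fell on the 4 arrays with the lowest cardiomyocyte markers. The part of those markers in these values was not tested. In the 17 arrays Pdk1 was 10.53, 10.79 and 10.85 with coarse particles against 10.44 to 10.63 with filtered air, a log2 difference of 0.21 (95% interval 0.03 to 0.39) that did not pass (adjusted p = 0.677, limma). In all 27 arrays this difference was 0.03 (95% interval -0.43 to 0.50; adjusted p = 0.991, limma).

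Pdk2, the kinase expressed in most tissues, had its highest median in fine hearts. It ran from 10.24 to 10.75 there with a median of 10.42, against 9.94 to 10.41 with a median of 10.12 in filtered air. With coarse particles it ran from 9.30 to 10.40 with a median of 10.24, and with ultrafine particles from 9.52 to 11.31 with a median of 10.14. All 6 fine arrays were above the filtered air mean and 3 of them above every filtered air array, so the groups overlapped. The log2 difference was 0.29 (95% interval -0.12 to 0.70; adjusted p = 0.918, limma) in 27 arrays and 0.27 (95% interval 0.05 to 0.50; adjusted p = 0.617, limma) in 17. With coarse and ultrafine particles, where Pdk4 was high, Pdk2 differed from filtered air by -0.04 and 0.01 in 27 arrays and by 0.05 and -0.01 in 17.

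The 3 subunit genes moved little between groups and widely within them. Pdha1, which encodes the alpha subunit of the first component and carries the sites that the kinases phosphorylate, ran from 10.43 to 11.67 with a median of 11.12 in filtered air. It ran from 9.82 to 11.72 (median 11.20) with coarse, from 9.83 to 11.27 (median 10.84) with fine and from 9.88 to 11.84 (median 11.13) with ultrafine particles. All 4 groups overlapped, and the range within a group exceeded every difference between group means.

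Pdhb, which encodes the beta subunit of the first component, ran from 10.53 to 11.71 (median 11.16) in filtered air and from 9.98 to 11.61 (median 11.03) with coarse particles. It ran from 10.17 to 11.20 (median 10.91) with fine and from 10.08 to 11.76 (median 11.19) with ultrafine particles. Dlat, which encodes the dihydrolipoamide acetyltransferase at the core of the complex, ran from 8.18 to 9.27 (median 8.90) in filtered air and from 7.58 to 9.21 (median 9.04) with coarse particles. It ran from 8.17 to 9.22 (median 8.90) with fine and from 7.79 to 9.51 (median 8.97) with ultrafine particles. For all 3 genes coarse 1 had the lowest value of the coarse arrays, ultrafine 7 the lowest and ultrafine 8 the highest of the ultrafine arrays. Among the 17 arrays fine 1 and ultrafine 5 held the low values, with Pdha1 at 10.36 and 10.31, and on ultrafine 5 Pdk4 was nonetheless 9.12.

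**Figure D2:**
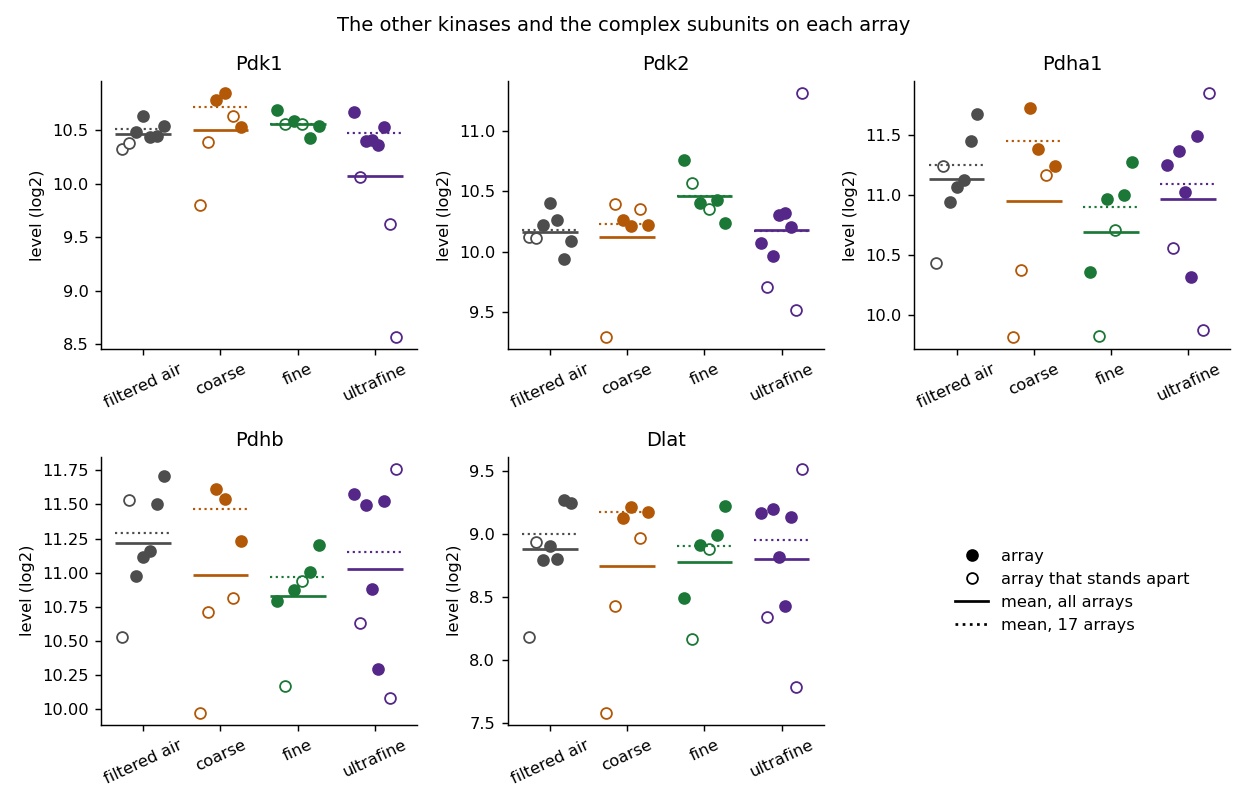
Levels (y axes, log2) of Pdk1, Pdk2, Pdha1, Pdhb and Dlat on each array by exposure group (x axes). Open points are arrays that stand apart, solid lines are means over all arrays and dotted lines means over 17 arrays. Over all arrays the groups overlap in every panel, and the far points include coarse 1, fine 2, ultrafine 7 and ultrafine 8.

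None of the 5 genes beside Pdk4 passed the test in any comparison. In 27 arrays 0 of 30 tests (5 genes in 6 comparisons between groups) passed an adjusted p of 0.05 in limma, with 1 at an unadjusted p under 0.05, and the lowest adjusted p was 0.372, for Pdk1 between fine and ultrafine particles. Over the 17 arrays 0 of 30 passed and 5 had an unadjusted p under 0.05. There the smallest adjusted p was 0.305, for Pdk2 in the same comparison. The background was low as well. Against filtered air, 0.00858% of all probes were called with coarse, 0% with fine and 0.0686% with ultrafine particles in 27 arrays, and 0.129%, 0% and 0.395% in 17. Between particle sizes 0.0257% were called for coarse against fine, 0% for coarse against ultrafine and 0.197% for fine against ultrafine in 27 arrays, and 0.146%, 0% and 0.412% in 17. A test of any difference among the 4 groups called 0 of the 5 genes (lowest adjusted p = 0.817) and 0.0944% of all probes in 27 arrays, and 0 of 5 (lowest adjusted p = 0.590) and 0.403% in 17. A difference missed here is not shown to be absent. Against filtered air in 17 arrays the intervals still allowed Pdha1 to be lower by 0.82 with fine particles (log2 difference -0.35, 95% interval -0.82 to 0.12) and Pdhb by 0.79 (log2 difference -0.32, 95% interval -0.79 to 0.14).

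The widest gap of a subunit gene in the 17 arrays was between coarse and fine hearts. Pdha1 stood 0.55 higher with coarse than with fine particles (95% interval 0.02 to 1.08; adjusted p = 0.548, limma) and Pdhb 0.49 higher (95% interval -0.03 to 1.02; adjusted p = 0.553). For Pdhb the coarse arrays, at 11.24, 11.54 and 11.61, did not overlap the fine arrays, at 10.79, 10.88, 11.01 and 11.20, which at 14.7% of all probes was a common pattern between these groups. In all 27 arrays these differences were 0.26 and 0.15 and the groups overlapped.

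**Figure D3:**
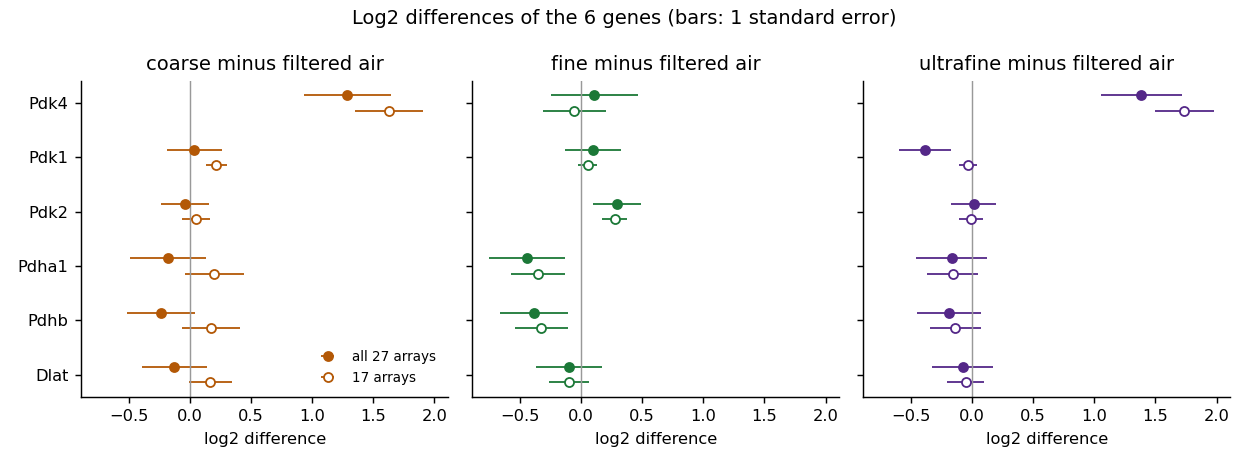
Log2 difference from filtered air (x axes) of the 6 genes (y axis) for coarse, fine and ultrafine particles, with bars of 1 standard error. Filled points are all 27 arrays and open points the 17 arrays; Pdk4 lies between 1.29 and 1.74 for coarse and ultrafine particles, and the other 5 genes lie between -0.44 and 0.29 in all 3 comparisons.

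Whether Pdk4 varied with the other genes inside the groups was asked with the deviation of each array from its group mean, which leaves out the differences between groups that chose the gene. In 27 arrays Pearson's r with Pdk4 was 0.69 for Dlat (permutation p = 0.00061, adjusted p = 0.00127), 0.69 for Pdha1 (p = 0.00034, adjusted p = 0.00127) and 0.67 for Pdhb (p = 0.00076, adjusted p = 0.00127), with permutations within groups. It was 0.62 for Pdk1 (permutation p = 0.021, adjusted p = 0.0263) and 0.23 for Pdk2 (permutation p = 0.374, adjusted p = 0.374). Spearman's rho was 0.53, 0.59, 0.56, 0.70 and -0.04 for Dlat, Pdha1, Pdhb, Pdk1 and Pdk2, with adjusted permutation p-values of 0.0142, 0.0079, 0.0142, 0.0022 and 0.862. Adjustment was over the 5 relations. Of all other kept probes, 10.7% also had an r over 0.6 with Pdk4, so such a value was common on these arrays.

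How far these relations rested on the arrays that stand apart differed between the genes. Coarse 1 and ultrafine 7, whose Pdk4 deviations lay farthest from the median deviation, were left out of the relations but not of the group means. The remaining deviations may therefore still carry part of these 2 arrays. In the remaining arrays r was 0.50 for Pdha1, 0.49 for Pdhb, 0.47 for Dlat, 0.56 for Pdk1 and -0.33 for Pdk2. The first 4 passed by Pearson's r (permutation test, adjusted p from 0.0053 to 0.0314). By Spearman's rho only Pdk1 passed there (0.62, adjusted permutation p = 0.0187), with rho of 0.48 for Pdha1, 0.44 for Pdhb and 0.40 for Dlat (adjusted permutation p = 0.0506, 0.0699 and 0.0699). Over the 17 arrays r was 0.68 for Pdha1, which passed (permutation adjusted p = 0.0186), while its rho of 0.66 did not (permutation adjusted p = 0.0502). It was 0.61 for Pdhb and 0.53 for Dlat, which did not (adjusted p = 0.0599 and 0.0602), 0.25 for Pdk1 (adjusted p = 0.372) and -0.36 for Pdk2 (adjusted p = 0.224). Of all other kept probes, 4.71% had an r over 0.6 with Pdk4 in the 17 arrays. Within single groups of all arrays, 4 of the 5 relations passed an exact permutation test among the 6 coarse arrays, with r from 0.90 to 0.97 and adjusted p from 0.00694 to 0.0139, and none passed among filtered air, fine or ultrafine arrays, where r with Pdha1 was 0.80, 0.59 and 0.58. Coarse 1 and 2, with lymphocyte means of 9.67 and 8.45, had the lowest Pdk4, Pdha1, Pdhb and Dlat of the coarse arrays. The share of all probes with an r of that size among the coarse arrays was not counted. Nothing particular to these genes is read from it. In filtered air the hearts with the highest Pdk4, 6 and 7 at 8.48 and 8.36, also had the highest Pdha1, at 11.45 and 11.67.

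The subunit genes followed each other more closely than they followed Pdk4. Over deviations in 27 arrays, r was 0.95 between Pdha1 and Pdhb, 0.97 between Pdha1 and Dlat and 0.94 between Pdhb and Dlat, each with a permutation p of 1e-05, the smallest the permutations can give, and an adjusted p of 3.33e-05 over 10 pairs. Spearman's rho was 0.93, 0.95 and 0.90. Pearson's r was 0.90, 0.91 and 0.88 in the 17 arrays (permutation adjusted p = 0.0001, 0.0013 and 0.00105). By r with Pdha1 over the 11656 other kept probes, Dlat had rank 3 and Pdhb rank 24 in 27 arrays, and ranks 68 and 95 in 17. An r over 0.9 with Pdha1 was seen for 1.83% of probes in 27 arrays and 0.892% in 17.

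Pdk2 changed sides with the arrays used. In 27 arrays its r with Pdha1, Pdhb and Dlat was 0.45, 0.43 and 0.52, none of which passed (permutation adjusted p = 0.101, 0.123 and 0.0616), and Spearman's rho was 0.05, 0.06 and 0.07. Over the 17 arrays r was -0.71, -0.64 and -0.85, all of which passed (permutation adjusted p = 0.0116, 0.0119 and 0.00195). By r with Pdha1 in these arrays Pdk2 was 946th from the lowest of 11656 probes, so many probes ran opposite to Pdha1 as strongly. Coarse 1, with Pdk2 at 9.30 and Dlat at 7.58, and ultrafine 8, with Pdk2 at 11.31 and Dlat at 9.51, deviated farthest in Pdk2. With these 2 left out but still counted in the group means, r in the remaining 25 arrays was 0.12, 0.12 and 0.21. Group means were not taken anew, so these values may still carry part of the 2 arrays. The direction between the kinase and the subunits therefore depended on which arrays were used, and within the 17 the hearts with more Pdha1, Pdhb and Dlat RNA had less Pdk2 RNA.

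**Figure D4:**
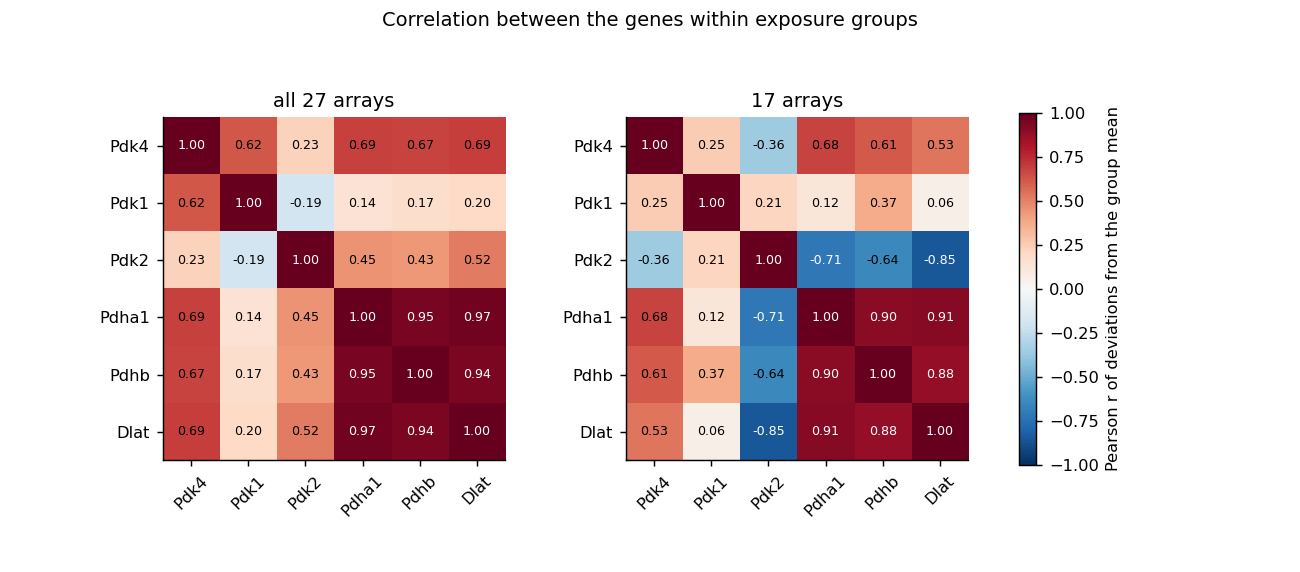
Pearson correlation of deviations from the group mean between the 6 genes (rows and columns), in all 27 arrays on the left and in 17 arrays on the right, on a colour scale from -1 to 1. The block of Pdha1, Pdhb and Dlat is at 0.88 or more in both, while Pdk2 turns from 0.43 to 0.52 with these genes on the left to -0.85 to -0.64 on the right.

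The genes whose levels were most like those of Pdk4 across all 27 arrays, by Pearson's r among 7951 other named genes, were Acot1 at 0.86, Mlycd at 0.85, Gpihbp1 at 0.84, Cpt1a at 0.82, Cebpb at 0.81, Lipe at 0.81, Pnpla2 at 0.79 and Ccl6 at 0.78. Acot1 encodes an acyl-CoA thioesterase, Mlycd the malonyl-CoA decarboxylase that removes an inhibitor of fatty acid entry into mitochondria, and Cpt1a a carnitine palmitoyltransferase of that entry step. Gpihbp1 anchors lipoprotein lipase on capillaries, Lipe and Pnpla2 are lipases of stored fat, Cebpb is a transcription factor and Ccl6 a chemokine. Lipe and Pnpla2 are also on the adipocyte list. The lowest were Mvd, an enzyme of cholesterol synthesis, at -0.69, Nfkbib, an inhibitor of NF-kappa B, at -0.65, Odc1, an enzyme of polyamine synthesis, at -0.64, and the cyclin gene Ccnd1 at -0.63. These values are a description of arrays that share normalization and group differences.

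Inside the groups these genes differed in how closely they followed Pdk4. With deviations from group means in 27 arrays, r with Pdk4 was between 0.66 and 0.79 for all 8 of the most alike genes. In the 17 arrays it was 0.57 for Cebpb, 0.53 for Mlycd and 0.35 for Cpt1a. It was 0.16 for Acot1, 0.07 for Lipe, 0.03 for Ccl6, 0.00 for Pnpla2 and -0.07 for Gpihbp1. In those arrays Acot1 was 6.05 to 6.15 with filtered air, 6.57 to 6.69 with coarse, 5.90 to 6.27 with fine and 6.63 to 6.79 with ultrafine particles, and its group means had the same order there as those of Pdk4. In the order of likeness over all 27 arrays, group differences included, Pdha1 stood at rank 350, Dlat at 489, Pdhb at 579, Pdk1 at 2652 and Pdk2 at 4210 of the genes compared. Inside the groups of the 17 arrays, r of Pdha1 at 0.68 and of Pdhb at 0.61 exceeded that of each of the 8 genes.

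Among the enzymes that act on the complex beside the 6 genes, Pdk3, Pdp1, Pdp2 and Pdpr were measured and 0 of 4 passed against filtered air with any particle size, in 27 or in 17 arrays. Pdp2, a phosphatase that reactivates the complex, had the smallest p of the 4 in each comparison with filtered air. In the 17 arrays it ran from 7.85 to 8.38 with filtered air, from 7.53 to 7.77 with coarse, from 8.19 to 8.45 with fine and from 7.40 to 8.23 with ultrafine particles. Its log2 difference from filtered air was -0.55 (SE 0.16; adjusted p = 0.648, limma) with coarse particles in 27 arrays and -0.49 (SE 0.16; adjusted p = 0.475) in 17. With ultrafine particles it was -0.41 (SE 0.15; adjusted p = 0.750, limma) and -0.33 (SE 0.13; adjusted p = 0.559). Fine exceeded ultrafine by 0.64 (SE 0.15; adjusted p = 0.0721, limma) in 27 arrays and by 0.51 (SE 0.14; adjusted p = 0.142) in 17.

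None of the remaining parts of the complex passed. Of Dld, its dihydrolipoamide dehydrogenase, Pdhx, which binds that enzyme to the core, and the lipoyl transferases Lipt1 and Lipt2, 0 of 4 passed in any comparison with filtered air, in 27 or in 17 arrays. The same sets of arrays were used for the lists that follow. Of 14 measured genes for pyruvate entry and its other fates 0 passed. The lowest adjusted p of this list against filtered air was 0.263 in limma, for Mpc1, a subunit of the mitochondrial pyruvate carrier, which was 0.33 lower with ultrafine particles in the 17 arrays (log2 difference -0.33, SE 0.10). Of 7 measured genes of the related 2-oxoglutarate, branched-chain and glycine cleavage enzymes 0 passed. Of 19 regulators known to act on Pdk4 0 passed against filtered air, and the smallest p in the 17 arrays was for Nr3c1, the glucocorticoid receptor, with ultrafine particles (log2 difference -0.22, SE 0.06, adjusted p = 0.203, limma). At an unadjusted p under 0.05 there were 0 or 1 genes per comparison with filtered air among the complex parts and among the kinases and phosphatases, 0 to 3 among the pyruvate genes, 0 to 2 among the related enzymes and 0 to 3 among the regulators. The median log2 difference of each of these 5 lists lay between -0.16 and 0.11 in the 17 arrays, and that of all probes was 0.00 in each comparison.

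Targets of PPAR alpha, the receptor through which fatty acids raise Pdk4, were the only list of the 6 with a called gene against filtered air in 27 or in 17 arrays. In 27 arrays 1 of 20 rose with ultrafine particles, namely Acot1 (log2 difference 0.47, SE 0.09, adjusted p = 0.0456, limma), beside 0.06% of all probes called higher, and 0 of 20 passed with coarse or fine particles (2 and 0 at an unadjusted p under 0.05). On leaving out 1 array, Acot1 kept that call in 7 of 27 fits, those without coarse 1, 3 or 5, fine 1 or 3, or ultrafine 2 or 7. The call was also lost with no filter, with limma's trend and robust options, with only the compared groups fitted and with the replicate number as a block, and a stricter filter on dim probes left the probe out. Within the 17 arrays Acot1 rose with coarse particles (log2 difference 0.51, SE 0.08, adjusted p = 0.0338), beside 0.0858% of all probes called higher and 0.0429% lower. With ultrafine particles 5 of 20 rose and 0 fell there, beside 0.283% of all probes called higher and 0.112% lower. They were Acot1 (0.57, adjusted p = 0.00139), Ucp3, a mitochondrial uncoupling protein (0.62, adjusted p = 0.0035), Slc27a1, a fatty acid transporter (0.52, adjusted p = 0.0144), Angptl4, an inhibitor of lipoprotein lipase (0.93, adjusted p = 0.0152), and Cpt1a (0.59, adjusted p = 0.0225). With fine particles 0 of 20 passed in the 17 arrays, and 0 had an unadjusted p under 0.05.

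Leaving out 1 of the 17 arrays at a time, Acot1, Ucp3 and Slc27a1 kept their call with ultrafine particles in 17 of 17 fits, Angptl4 in 14 and Cpt1a in 11. Angptl4 lost it without filtered air 4, 6 or 7, and Cpt1a without filtered air 3, 4, 6 or 7 or ultrafine 3 or 6. Acot1 kept its call with coarse particles in 11 of 17 fits and lost it without coarse 3, coarse 4, ultrafine 3, or filtered air 3, 4 or 6. Signs in the 17 arrays were positive for 19 of 20 targets with coarse particles (median 0.29), 7 of 20 with fine particles (median -0.03) and 16 of 20 with ultrafine particles (median 0.23), against 52.1%, 51.5% and 49.6% of all probes. In all 27 arrays they were positive for 12, 10 and 10 of 20, with medians of 0.06, 0.00 and 0.03. Pdk4, itself a known target, was left out of the list, and these comparisons share their arrays with those of Pdk4.

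**Figure D5:**
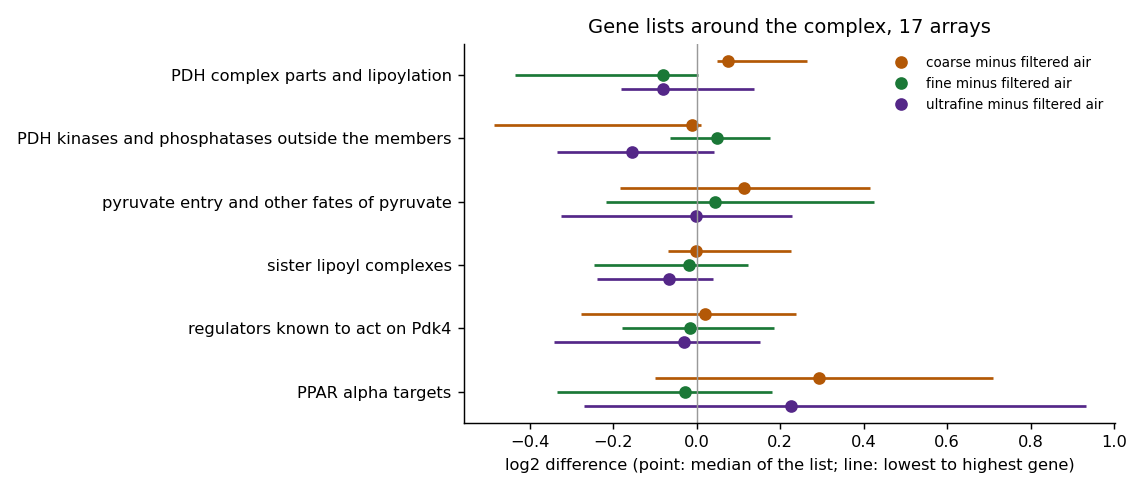
Log2 difference from filtered air (x axis) for 6 lists of genes around the complex (y axis) in the 17 arrays, with points for the median of a list and lines from its lowest to its highest gene, by particle size. The PPAR alpha targets have medians of 0.29 with coarse, -0.03 with fine and 0.23 with ultrafine particles, and the other lists have medians between -0.16 and 0.11.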

How the data were processed

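Total RNA from rat hearts was hybridised to Illumina bead arrays, and the authors, per the labels, removed 5 of 32 arrays for poor signal and preprocessed the rest with lumi 1.5.17, per the submitters' processing notes. The deposited values were taken as log2. Whether the transform was plain or variance stabilizing is not given in the sources used here, so low levels may be compressed. Sorted values of all arrays differed by at most 0.0185, as after quantile normalization, and were not normalized again. Of 22226 probes, 13192 carried 1 gene symbol and 9034 none, and 13151 symbols were updated by gene identifier against the RefSeq table for GRCr8, which was used for names and promoters. The 11657 probes with the highest mean (5.79 or more) were kept, the number the authors kept per the labels by a detection filter that was not used here.

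All 4 groups were fitted in 1 model with limma 3.58.1 under R 4.3.3, two-sided, with Benjamini-Hochberg adjustment over all 11657 probes within a comparison, with calls at an adjusted p under 0.05. A gene with several probes in a list was represented by the probe with the smallest p. Correlations used deviations from group means with 100000 permutations within groups. The fit was tested on simulated data with known shifts: for coarse against filtered air over 11657 probes it recovered 67% of shifts of 0.5 and 94% of shifts of 1, with 8 false calls. The shifted probes were drawn at random and the noise was independent between probes. The 5 genes beside Pdk4 had fitted standard deviations of 0.36 (Pdk2) to 0.56 (Pdha1). Recovery at their spread was not measured, so these rates do not say how often a shift in them would be found. The genes, the 6 lists around them (84 genes, 71 on the array, 68 kept) and the 4 marker lists were chosen with earlier results of these data known. All probes of the 6 genes were named, with up to 4 called and the 3 of smallest p per list, of which those bearing on a comparison are printed, and the 8 genes most and 4 least like Pdk4. Cpt1a is a 5th called gene of its list and was added after its values were seen. An array stood apart where its lymphocyte mean exceeded the median of all arrays by over 3 median absolute deviations or where the median of its correlations with the rest fell below 0.949. Arrays limit precision by their number, since bead-level errors and background were not used here.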

Additional observations from a re-analysis of the deposited data

Results flagged for a closer look

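Of 24 combinations of a gene with a group, 2 had a single array far from the others, a rule that chance meets about 1 time in 20. Pdk2 on coarse 1 was 9.30 against 10.22 to 10.40 on the other 5 coarse arrays, a gap of 0.835 of the range of the group. Pdk2 on ultrafine 8 was 11.31 against 9.52 to 10.32 on the other 7 ultrafine arrays, a gap of 0.552 of the range. Both arrays are among the 10 that stand apart, with cardiomyocyte marker means of 11.65 and 11.47 and median correlations with the other arrays of 0.904 and 0.913. The part of these in the Pdk2 values was not tested.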

How the results depend on the processing

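Pdk4 stayed higher than in filtered air with coarse and ultrafine particles under median centring, cyclic loess, array weights and a replicate block. Other filters, limma's trend and robust options and fits of the compared groups only were also run. They leave a difference of group means unchanged, so they say nothing about Pdk4. Counts of the other 5 genes called stayed at 0 except for 1 (Pdk2) between fine and ultrafine particles with array weights, a setting that also raised the calls over all probes in that comparison from 23 to 815. Counts of list genes called with coarse particles went from 0 to 5 with array weights (Acot1, Foxo3, Mlycd, Plin2 and Slc27a1), 1 in the 17 arrays and 2 in a set of 20 arrays left by a wider limit, both sets chosen after seeing the data. With ultrafine particles the count went from 1 to 2 with cyclic loess, 7 with array weights, 5 in the 17 and 7 in the 20 arrays. It went to 0 with no filter, with a stricter filter that left out Acot1 as dim, with trend and robust options and with only the compared groups, and it ran from 0 to 4 on leaving out 1 array, with 4 without ultrafine 7 and 0 in 19 of the 27 fits. In the 17 arrays 0.129% of all probes were called with coarse and 0.395% with ultrafine particles. The shares with array weights, with cyclic loess and in the 20 arrays are not given here, so nothing is read from those counts. The number of correlations with Pdk4 that passed went from 4 to 0 within filtered air, within fine and within ultrafine arrays, stayed at 4 within coarse arrays, and went to 1 in the 17 and 3 in the 20 arrays. The causes were not tested.

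The labels give no shared litter, batch or day behind a replicate number, and not every pair of the same number was alike: over 37 such pairs, deviations had a median r of 0.34 (0.0083 for different numbers) and a lowest of -0.72, 23 were over 0.1, and 6 of 27 arrays correlated best with their own number. With the replicate block the list genes called with ultrafine particles went from 1 to 0, and calls over all probes went from 1 to 9 for coarse, stayed at 0 for fine and went from 8 to 12 for ultrafine particles. The small number of arrays and the unknown signal over background limit all values, above all those of dim probes such as Acot1 and Angptl4.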
